A study of Drosophila melanogaster with 4 samples.

Results

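The genes described here are the aminoacyl-tRNA synthetases that the study's pair of deposited gene tables lists under a name starting with Aats-. They are 2 of the 1283 listed genes, Aats-ala and Aats-lys, now named AlaRS and LysRS, and they were taken by name alone. The tables hold only genes that had passed the authors' threshold between the genotypes, with adjusted P values of at most 0.0497, so that both genes are called is a condition of their being here and is no finding. RNA was sequenced from ovaries of Drosophila melanogaster, from snf148 mutant females and from wild-type (WT) females, with 2 libraries of each. Mutant females had the genotype y w snf[148] v and were 3-day adults. WT females had the genotype y w, were virgins and were 0 to 24 hours old. Both groups therefore carried y and w, while v, age and possibly mating status differed along with snf, and their parts cannot be told apart. The gene snf encodes a protein of spliceosomal small nuclear ribonucleoproteins that is needed for female splicing of Sex-lethal RNA, and snf148 females form germ cell tumours.

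Aminoacyl-tRNA synthetases join each amino acid to its own tRNAs and so supply the ribosome with charged tRNA. AlaRS and LysRS belong to class II of these enzymes, which share a catalytic fold. AlaRS also removes wrongly attached serine and glycine. In animals LysRS sits in a multisynthetase complex held together by scaffold proteins, whereas AlaRS acts outside it. Nurse cells of the fly ovary make large amounts of RNA and protein for the oocyte, and ribosomes and tRNAs are among the stores it receives.

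Both members fell in snf148 ovaries. The alanyl-tRNA synthetase gene Aats-ala had an authors' mean of 86.3 FPKM (sequenced fragments per unit of gene length and of library size) in snf148 and 142 FPKM in WT. Its mutant mean was 60.6% of the WT mean, a log2 ratio of -0.72 for snf148 over WT. The lysyl-tRNA synthetase gene Aats-lys had an authors' mean of 133 FPKM in snf148 and 201 FPKM in WT. Its mutant mean was 66.2% of the WT mean, a log2 ratio of -0.60. In the authors' deposited table the adjusted P value was 0.00925 for Aats-ala and 0.0323 for Aats-lys. Values of single libraries were not analysed here, so no SD stands beside these means, whether the libraries of the genotypes overlap is not known, and the depth behind them is unknown.

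In snf148 the FPKM level of Aats-lys was 1.54 times that of Aats-ala, and in WT it was 1.41 times. Aats-lys was thus the more abundant of the pair in both genotypes and had the ratio nearer to 0. Whether the ratios of the members differ from each other was not tested, since the tables give no error for either mean. In bulk ovaries, fewer cells of a type that holds much of these RNAs and less RNA per cell cannot be told apart.

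Both losses were small beside those of other listed genes. Of the 618 listed genes lower in snf148 (48.2% of all listed genes, the other 51.8% being higher), 540 fell by more than Aats-ala and 77 by less. For Aats-lys only 5 of them fell by less. The median log2 ratio over the 618 lower genes was -1.07, and the ratio nearest to 0 was -0.59, so Aats-lys stands at the edge of what the tables hold. By WT level the members stood high: Aats-lys was number 79 and Aats-ala number 123 of the lower genes, whose median WT level was 63.5 FPKM. Lower genes with at least 10 FPKM in WT, as both members have, made up 42.1% of all listed genes. Lower genes with an adjusted P value up to 0.01 in the authors' deposited table made up 27.1%, and Aats-ala was among them but Aats-lys was not. Lower genes with at least a 2-fold difference made up 26.1%, and neither member was among them.

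**Figure D1:**
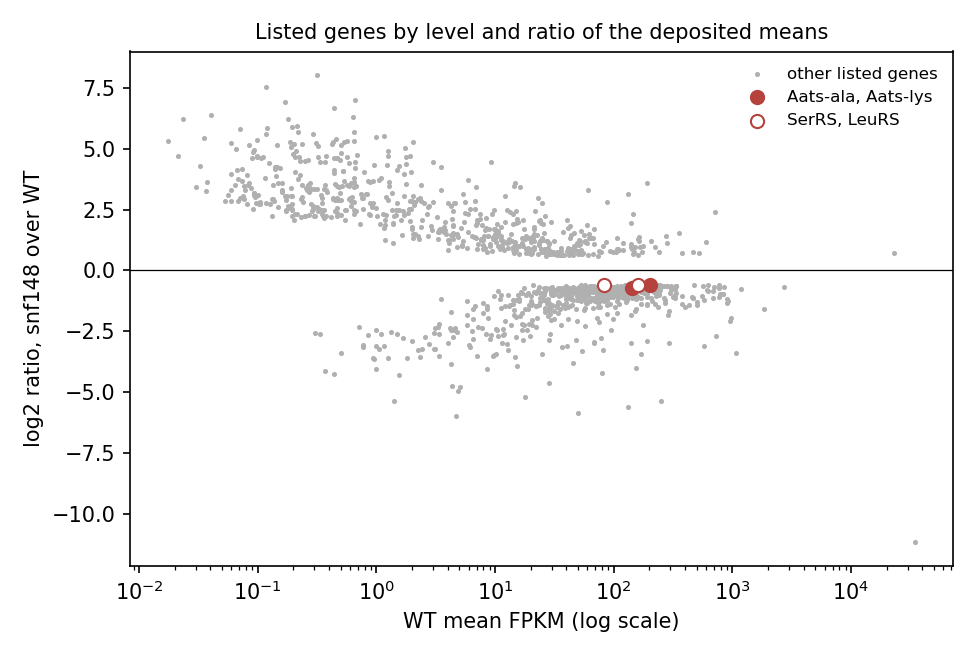
Log2 ratio of the authors' mean FPKM, snf148 over WT, against the WT mean FPKM (log scale) for the 1242 listed genes above 0 in both genotypes, 1 point a gene. Aats-ala and Aats-lys are filled, and the other listed synthetase genes SerRS and LeuRS are open, with ratios from -0.72 to -0.59. Aats-lys, SerRS and LeuRS lie at the edge nearest to 0 among lower genes, whereas 77 lower genes are nearer to 0 than Aats-ala.

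Per the tables, Aats-ala lies at 8378262 to 8381764 on chromosome 2L and Aats-lys at 9500396 to 9502917 on X, with starts moved to count from 1; the build is not named in the files. In the Ensembl annotation of BDGP6 both genes are on the minus strand and overlap no other gene, and their spans of 3503 and 2522 bp equal those in the tables. The start of AlaRS is the same in both, whereas that of LysRS differs, so the X coordinates above are not those of BDGP6. AlaRS has 2 annotated transcripts, both with a protein of 966 residues. LysRS has 3 transcripts, which encode proteins of 607 or 574 residues. In human cells alternative splicing of the lysyl enzyme's gene gives a cytosolic and a mitochondrial form. A gene-level FPKM does not separate such forms, and in fly the reference list holds AlaRS-m but no LysRS-m.

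A list of 36 synthetase genes was matched to the tables by current and older names, and 4 of them were listed, all 4 lower in snf148. Besides the members these were SerRS, listed as CG17259, and LeuRS, listed as CG33123. SerRS, the seryl enzyme, had an authors' mean of 106 FPKM in snf148 and 161 FPKM in WT, a log2 ratio of -0.60. LeuRS, the leucyl enzyme, had 54.7 FPKM in snf148 and 82.3 FPKM in WT, a log2 ratio of -0.59. In the authors' deposited table their adjusted P values were 0.0388 for SerRS and 0.0453 for LeuRS. The 4 log2 ratios spanned 0.13, with a median of -0.60, against a median of -1.07 over all lower genes. Only genes that passed are listed, and no lower gene was nearer to 0 than -0.59. The span is therefore limited on that side and is no measure of likeness. No gene of the 36 was listed as higher.

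The order of the FPKM levels was the same in both genotypes, with LysRS first, then SerRS, AlaRS and LeuRS. LysRS stood at 1.25 times SerRS in snf148 and 1.25 times in WT, and at 2.43 times LeuRS in snf148 and 2.45 times in WT. The pairs with AlaRS were less steady. SerRS stood at 1.23 times AlaRS in snf148 and 1.13 times in WT, and AlaRS at 1.58 times LeuRS in snf148 and 1.73 times in WT. LysRS, SerRS and LeuRS all lay close to -0.59, the ratio nearest to 0 of any lower gene. Steady proportions among them follow in part from that limit and are no measure of likeness. Summed over the 4 genes, the authors' means came to 380 FPKM in snf148 and 587 FPKM in WT, or 64.8% of WT. The spread between libraries is not known for any of them, so whether neighbours in this order differ beyond it cannot be said. SerRS overlaps CG17260 on the opposite strand by 174 bp in the Ensembl annotation of BDGP6, and whether the counting used strand is not given in the sources used here.

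**Figure D2:**
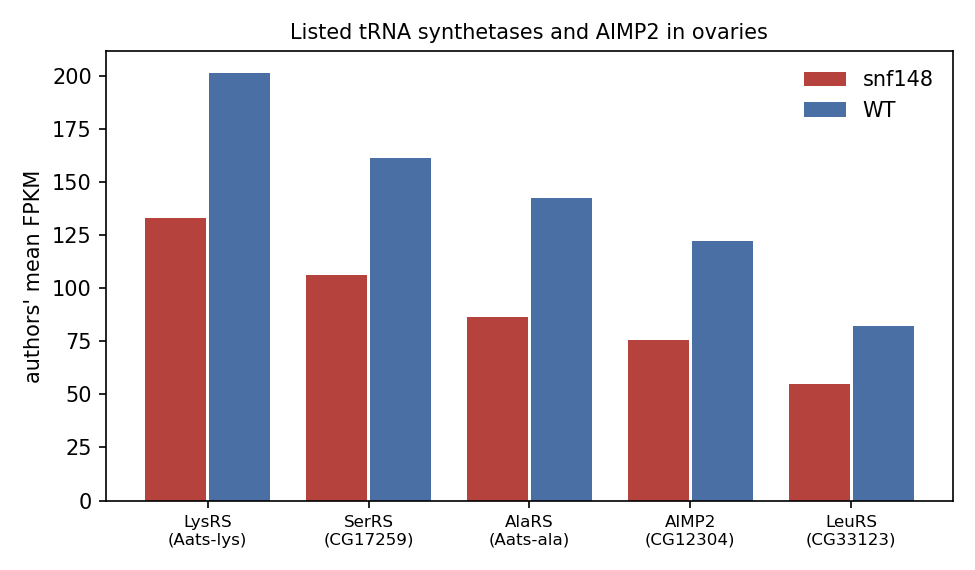
Authors' mean FPKM in snf148 (red, left bar) and WT (blue, right bar) ovaries for the 4 listed synthetase genes and the scaffold gene AIMP2, with the name in the tables in brackets; there are no error bars because the tables give means only. The snf148 bar is the lower of each pair, at 60.6% of the WT bar for AlaRS and 66.5% for LeuRS.

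Of the 36 synthetase genes, 16 carry names of mitochondrial enzymes (an -m ending, or Slimp, an insect mitochondrial relative of the seryl enzyme), and none of these was listed. All 4 listed genes were among the other 20, which serve the cytosol or, for some, both compartments. The 4 genes are 11.1% of the 36, while 4.35% of the 13962 protein-coding genes of the reference table were listed as lower and 4.60% as higher. The number of genes the authors tested is not known, and the reference count includes genes silent in the ovary. The direction of the 4 genes was that of most listed genes of their WT level, which is largely set by how such a band is drawn. Among all listed genes the median WT level was 63.5 FPKM for lower genes and 2.03 FPKM for higher ones, so high WT means hold mostly lower genes. Of the 193 listed genes with WT means from 82.3 to 201 FPKM, the range of the 4 synthetases, 165 (85.5%) were lower and 28 higher. The 4 synthetases are counted among the 165. The median log2 ratio of those 165 genes was -0.90. The other 32 synthetase genes were not analysed here, and their absence from the tables says nothing about their levels.

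Of the 3 scaffold genes of the multisynthetase complex, AIMP1, AIMP2 and AIMP3, only AIMP2 was listed. With 3 genes, this share cannot be read against the 4.35% of protein-coding genes listed as lower. In the human complex the AIMP2 protein binds LysRS directly. AIMP2, listed as CG12304, had an authors' mean of 75.3 FPKM in snf148 and 122 FPKM in WT, a log2 ratio of -0.70. In the authors' deposited table its adjusted P value was 0.0264.

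Genes of tRNA maturation were listed for 2 of 18 on the list, both lower, or 11.1%. Over protein-coding genes 4.35% were listed as lower, and 48.2% of all listed genes were lower. A list of 18 with 2 listed genes is too short for its share to be read against these. La, which binds and protects the ends of new tRNA precursors, had 149 FPKM in snf148 and 331 FPKM in WT, a log2 ratio of -1.15. Elp2, a subunit of the Elongator complex that modifies wobble uridines of tRNA, had 25.1 FPKM in snf148 and 99.5 FPKM in WT, a log2 ratio of -1.99. Both fell by more than any of the 4 synthetases.

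Among elongation factors, which bring charged tRNA to the ribosome and move it along, 2 of 7 were listed, 1 in each direction. Over protein-coding genes 4.35% were listed as lower and 4.60% as higher, and a list of 7 is too short to compare. The exchange factor subunit eEF1delta had 404 FPKM in snf148 and 619 FPKM in WT, a log2 ratio of -0.61. Ef1alpha100E, a second gene for the factor that carries charged tRNA, had 11.2 FPKM in snf148 and 1.97 FPKM in WT, a log2 ratio of 2.50. The falling gene lay close to the synthetases in ratio and the rising one was of low level in WT.

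Initiation factors, taken by the start of a current or older name, were listed for 7 of 50, with 4 lower and 3 higher. These are 8% and 6% of the list, where 4.35% of protein-coding genes were listed as lower and 4.60% as higher. Whether these shares differ was not tested. The lower members had a median log2 ratio of -0.73. Among these, eIF-2gamma, a subunit of the factor that brings the initiator tRNA, had 175 FPKM in snf148 and 307 FPKM in WT. The scaffold subunit eIF3-S10 had 179 FPKM in snf148 and 282 FPKM in WT, and exba, on the list through an older eIF name, had 505 FPKM in snf148 and 773 FPKM in WT. The higher members were eIF4E-3, CG8335 and eIF4G2, of which eIF4E-3 and eIF4G2 are known from male germ cells. The largest change was that of eIF4E-3, with 45.6 FPKM in snf148 and 0.443 FPKM in WT, a log2 ratio of 6.68. CG8335, now eIF3f2, had 9.73 FPKM in snf148 and 0.378 FPKM in WT, and eIF4G2 had 33.8 FPKM in snf148 and 20.4 FPKM in WT.

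Cytoplasmic ribosomal protein genes were listed for 5 of 92, with 4 higher and 1 lower. The higher genes are 4.35% of the list, near the 4.60% of all protein-coding genes listed as higher. The lower gene is 1.09% of the list, against 4.35% of protein-coding genes. The higher ones were the paralogues RpL37b, RpL22-like, RpS19b and RpS10a, with log2 ratios from 3.42 for RpS10a to 7.01 for RpL37b. The lower one was RpL23A, with 400 FPKM in snf148 and 901 FPKM in WT, a log2 ratio of -1.17. Mitochondrial ribosomal protein genes were listed for 4 of 73, all lower, with a median log2 ratio of -0.83. These are 5.48% of the list, near the 4.35% of all protein-coding genes listed as lower. They were mRpL20, mRpS10, mRpS28 and mRpS30, and mRpS30 had 63.6 FPKM in snf148 and 106 FPKM in WT.

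**Figure D3:**
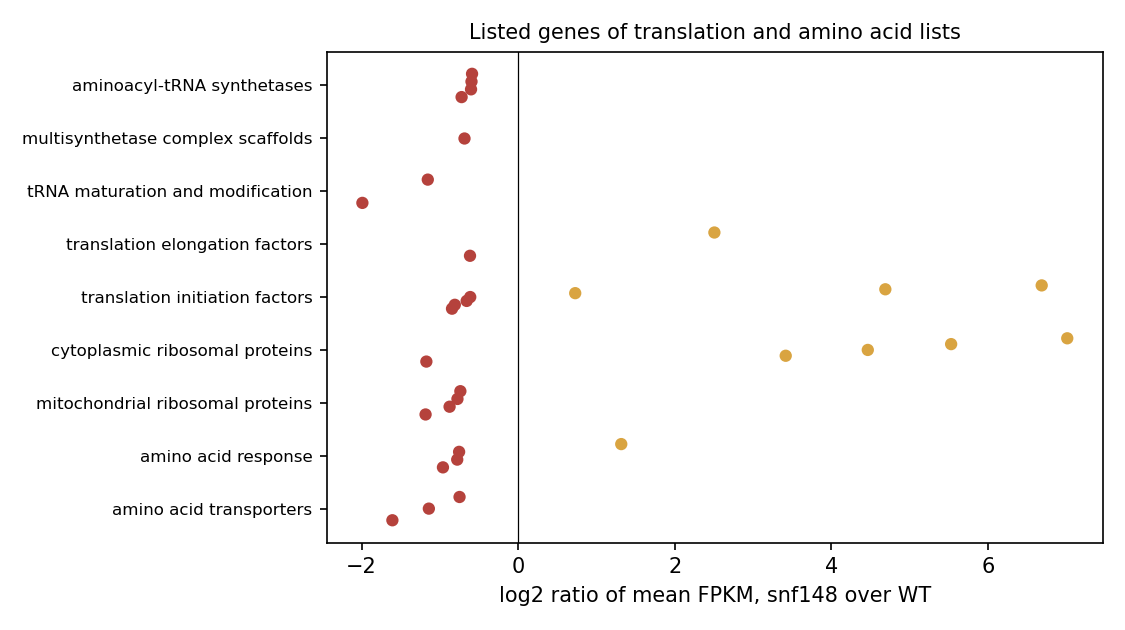
Log2 ratio of the authors' mean FPKM, snf148 over WT, for each listed gene of 9 lists of translation and amino acid genes, 1 point a gene, red below 0 and yellow above; the height of a point within its row carries no value. The 4 synthetases lie from -0.72 to -0.59. Scaffolds, tRNA maturation, mitochondrial ribosomal proteins and amino acid transporters also hold lower genes only. Cytoplasmic ribosomal proteins, initiation factors, elongation factors and the amino acid response hold genes in both directions.

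The kinase Gcn2 is switched on by uncharged tRNA, and its target ATF4, encoded by crc in flies, drives genes of amino acid supply, in many animals synthetases included. Of 13 genes on a list drawn up around this response, which also named PEK, Ire1 and Xbp1, 4 were listed. Of these 4, 3 were lower and 1 higher, and neither Gcn2 nor crc was among them. Over all protein-coding genes 4.35% were listed as lower and 4.60% as higher. A list of 13 is too short for its share to be read against these. CG6287 and CG11899, homologues of the first enzymes of serine synthesis, had 97.8 FPKM in snf148 and 190 FPKM in WT for CG6287, and 56.1 FPKM in snf148 and 94.7 FPKM in WT for CG11899. The stress-induced TOR inhibitor gene Sesn had 28.0 FPKM in snf148 and 48.1 FPKM in WT. The pseudokinase gene trbl was higher, with 62.5 FPKM in snf148 and 25.1 FPKM in WT.

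Amino acid transporter genes were listed for 3 of 10, all lower, on a list too short for its share to be read against the 4.35% of protein-coding genes listed as lower, and 48.2% of all listed genes were lower. The transporter gene path had 194 FPKM in snf148 and 326 FPKM in WT, a log2 ratio of -0.75. For slif the values were 19.4 FPKM in snf148 and 42.7 FPKM in WT, and for mnd 15.8 FPKM in snf148 and 48.0 FPKM in WT. Their median log2 ratio was -1.14.

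The listed genes most like each member in level were found by the distance between log2 mean FPKM over the 2 genotypes. Nearest to Aats-ala was rdx, which encodes an adaptor of a ubiquitin ligase, at a distance of 0.0037, with 86.4 FPKM in snf148 and 142 FPKM in WT. Next were Pgd, of the pentose phosphate pathway, at 0.061, and 128up at 0.077. Nearest to Aats-lys was Pen, which encodes an importin alpha, at 0.12, with 125 FPKM in snf148 and 192 FPKM in WT. The purine synthesis gene ade5 followed at 0.18 and the ribonucleotide reductase gene RnrS at 0.20. With only 2 means a gene, such likeness describes level and ratio alone.

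The listed genes beside the members on their chromosomes differed in direction. Aats-ala had lower genes on both sides. CG7627, 15814 bp away, had 104 FPKM in snf148 and 156 FPKM in WT, and CG13397, 27205 bp away and now named Naglu, had 26.6 FPKM in snf148 and 76.5 FPKM in WT. Aats-lys had higher genes on both sides. CG32702, 35054 bp away and now named Cubn, had 7.07 FPKM in snf148 and 3.99 FPKM in WT, and l(1)G0232, 17449 bp away and now named Ptpmeg2, had 56.2 FPKM in snf148 and 36.5 FPKM in WT.

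Markers of the ovary's cell types and of nearby tissues also differed between the genotypes. Of 9 germline markers 4 were listed (grk, orb, osk and pgc), all lower, with summed means of 412 FPKM in snf148 and 1390 FPKM in WT. The germline markers vas, nos, otu, aub and bam were not listed, so their levels are not known. Of 8 follicle cell markers 7 were listed (Cp15, Cp16, Fas3, Vm26Aa, Yp1, Yp2 and Yp3), 5 higher and 2 lower. Their summed means, which mix both directions, were 2896 FPKM in snf148 and 1270 FPKM in WT. Such a sum does not count follicle cells. The follicle cell marker tj was not listed, so its level is not known. Of 7 muscle markers 2 were listed, both lower, with summed means of 3.93 FPKM in snf148 and 29.0 FPKM in WT, and of 7 fat body markers 2, 1 in each direction, with summed means of 98.9 FPKM in snf148 and 166 FPKM in WT. Over protein-coding genes 4.35% were listed as lower and 4.60% as higher. The marker lists are too short for their shares to be read against these. No listed marker was at 0 in either genotype. The part of these shifts in the loss of synthetase RNA was not tested. The mutated gene snf was not analysed here, and the genotype labels were not checked by its RNA level.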

How the data were processed

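Total RNA of ovaries was made into stranded paired-end libraries, per the labels' protocols. Reads were processed with TopHat2 2.0.9 and Cuffdiff, per the submitters' processing notes. Neither the build nor the annotation and strand setting is stated in the sources used here. The authors deposited, per the file headers, a mean FPKM for each genotype, a log2 fold change of WT over snf148, and P values (p-values) before and after adjustment. Only genes that passed are in the tables. Direction was read from the mean columns: the members stand in the table titled as upregulated, whose fold change is WT over snf148, and are lower in snf148. These P values rest on 2 libraries a genotype, and the spread between libraries may be technical.

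Log2 ratios of snf148 over WT were recomputed from the means with pandas 2.3.3 and numpy 2.4.6, with no pseudocount. For 5 of 1242 genes above 0 in both genotypes they differed from the deposited value by more than 0.001, at most by 0.10. Names were matched through symbols and synonyms of RefSeq release 6 genes for 1265 of 1283 genes. The members, the 9 lists and the rules were chosen with earlier results of these data known. Named genes were the members, listed genes of the lists (above 6, the 3 highest per direction), the listed neighbours and the 3 most alike in level. No limma fit was possible on means, and no set test was made. Ratio and rank steps were tested on simulated data.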

Additional observations from a re-analysis of the deposited data

How the results depend on the processing

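The log2 ratios of both members kept their sign and moved by less than 0.1 with pseudocounts of 1 or 0.1 FPKM and with the deposited log2 value. At least 10 FPKM in the higher group kept both members. Limiting the adjusted P value to 0.01 left 1 member, Aats-ala, as lower, and at least 2-fold left 0; both limits count fewer genes by construction. Over all 9 lists together, 23 lower genes became 9 with that P value limit and 6 at 2-fold, while 9 higher genes became 7 and 8. Among all listed genes, 618 lower genes became 348 with the P value limit and 335 at 2-fold. Whether the lists differ in this from all listed genes was not tested. With names taken only as spelled in the tables, 2 of the 4 synthetases were found. Among lower genes of at least 10 FPKM the rank from the largest loss was 463 for Aats-ala and 535 for Aats-lys, against 541 and 613 among all. Leaving out a replicate could not be run on means. No paired analysis was possible because the tables hold a mean per genotype and no value for a numbered library.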
